A study of Mus musculus with 36 samples.

Results

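Eosinophils of the mouse small intestine were sorted by a reporter of Nmur1, and 4 libraries of reporter-positive cells were set against the 4 reporter-negative libraries that carry the same replicate number. These 8 libraries (numbers 3, 4, 5 and 8 in each group) are 8 of the 36 samples of the series and 8 of its 11 libraries from reporter mice. Both groups came from NMUR1-TdT reporter mice on the C57BL/6 strain, aged 8 to 12 weeks and untreated (steady state), and both sexes were pooled. By the labels the groups differ in the sort for NMUR1 alone, so both carry the reporter allele. RNA was made into full-length Smart-seq2 libraries, and the values are TPM, the share of a library's transcripts that a gene takes, corrected for transcript length. A positive library can differ from a negative one in the RNA of each cell or in the mix of cells that the gate let through, and these cannot be told apart in sorted bulk samples.

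Neuromedin U is a neuropeptide made by neurons of the gut wall. Its receptor NMUR1 couples mainly to the G protein Gq, whose activation leads through phospholipase C to a rise in cytosolic calcium. Calcium then acts through calcineurin and NFAT and on immediate early genes. Eosinophils are granulocytes that settle in the healthy intestine, where they live longer than in blood and take on a distinct, partly activated state. NF-kappaB, a family of transcription factors held back by inhibitory IkappaB proteins, drives inflammatory cytokines and chemokines in such cells together with its own inhibitors.

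For every gene, the difference of log2(TPM + 1), positive minus negative, was taken within each pair. The median gene was not at 0 in any pair: it was higher in the positive library by 0.25 in pair 3, 0.11 in pair 4, 0.26 in pair 5 and 0.23 in pair 8. Differences are therefore also given relative to the pair's median gene ("centred"). A gene was called consistent where all 4 differences had 1 sign both as deposited and centred. Of 8001 deposited genes, 7977 passed the filter of at least 1 TPM in at least 4 of the 8 libraries. Of these, 1275 (16.0%) were higher and 862 (10.8%) lower in all 4 pairs. The 24 genes under the filter included 10 higher and 3 lower in all 4 pairs. As deposited and without centring, 2136 genes (26.8%) were higher and 862 lower in all 4. With centring alone, 1275 were higher and 1380 (17.3%) lower. The pairs' differences were related across genes, with Spearman's rho of 0.30 to 0.40 between any 2 pairs over the 7977 genes, which are not independent replicates.

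Most consistent differences were small. Among the higher genes, 320 had a centred difference under 0.1 in at least 1 pair, 260 reached 0.5 in every pair, 49 reached 1 in every pair and 1 gene, Rcan1, reached 2. On the same centred scale 411 lower genes reached 0.5 in every pair, 119 reached 1 and 28 reached 2. As deposited the balance at 0.5 was the opposite, with 518 genes higher and 261 lower. At the edge of the rule, Slc29a1 lay just inside the higher genes, with its nearest pair 0.00014 above the median gene, and Tmem167 just outside, with 1 pair at -8.5e-05. Ppia lay just inside the lower genes, with its nearest pair at -0.00038 as deposited, and Psma5 just outside, with 1 pair 0.00044 above 0.

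A test across all genes that ignored the numbers (limma's moderated test, two-sided, Benjamini-Hochberg adjusted p under 0.05) called 475 genes higher (5.95%) and 311 lower (3.9%) in the positive libraries, 9.85% of the genes tested. With the replicate number as a block it called 877 genes higher (11%) and 472 lower (5.92%). All 475 higher genes and 310 of the 311 lower genes were called with the block too. Of the consistent genes, 450 higher (35.3%) and 308 lower (35.7%) were among the calls without the block. The balance of directions moved with the scaling: 203 genes were called higher (2.54%) and 448 lower (5.62%) after centring each library on its median gene, 275 and 359 with quantile normalization, and 222 and 443 when libraries were scaled by median ratios. Without positive library 8 the total fell from 786 calls to 508. Irrespective of the pairs, the 4 positive libraries all lay above the 4 negative ones in 926 genes (11.6%) and below them in 431 (5.4%). Counts within gene lists are to be read beside the shares over all genes tested. These were 16.0% higher and 10.8% lower in all 4 pairs, and 5.95% called higher and 3.9% called lower. Genes are said to have risen or fallen only where limma called them without the block. The labels do not say that the libraries came from separate animals, so these p-values measure the spread between libraries only.

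**Figure D1:**
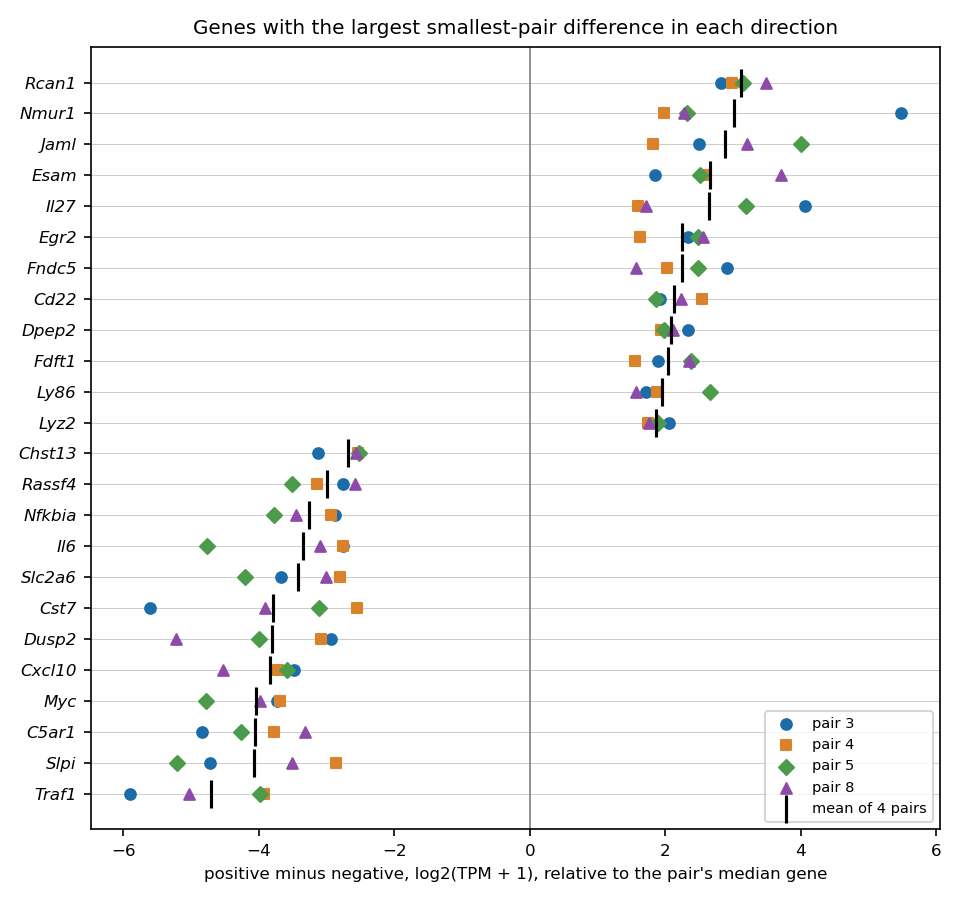
Within-pair differences of the 12 higher and 12 lower consistent genes with the largest smallest-pair difference, on the log2(TPM + 1) scale relative to the pair's median gene; each symbol is 1 pair and the bar is the mean of 4. The 4 symbols of every gene lie on 1 side of 0, and the lower genes reach farther from 0 (Traf1, mean -4.71) than the higher ones (Rcan1, mean 3.11).

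Nmur1, the gene whose reporter defined the sort, was checked first. It lies on the minus strand of chromosome 1 at chr1:86386303-86426228 (GRCm38). Its level was 52.2, 25.9, 53.1 and 45.1 TPM in positive libraries 3, 4, 5 and 8, and 0, 5.32, 8.03 and 7.13 TPM in the negative libraries of the same numbers. Every positive library was above every negative one, but 3 of the 4 negative libraries held some Nmur1 transcript and negative library 3 was listed at 0. The mean difference was 3.23 on the log2(TPM + 1) scale (SE 0.59, limma adjusted p = 0.00377, n = 4 in each group). The exact two-sided permutation test of 4 against 4 gave p = 0.0286, the smallest that its 70 regroupings allow. Exact sign flips of the 4 pairs cannot go below p = 0.125, the value they gave.

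Where 4 levels are given for a group they are those of libraries 3, 4, 5 and 8 in that order, and differences are means on the log2(TPM + 1) scale as deposited, with limma's standard error (n = 4 in each group). Rcan1, which encodes an inhibitor of calcineurin and is itself a known target of calcineurin and NFAT, was at 95.1, 141, 90.7 and 174 TPM against 10.5, 15.5, 7.63 and 12.3. Its difference of 3.32 (SE 0.28, limma adjusted p = 1.74e-05) was the highest of all consistent genes in the pair nearest to 0, and the groups did not overlap. Dpep2, a membrane dipeptidase that converts leukotriene D4 to E4, was at 319.5, 272, 337 and 274 TPM against 52.4, 65.1, 70.5 and 53.4 and rose by 2.30 (SE 0.17, limma adjusted p = 1.10e-05). Its exons overlap those of Dus2 and Dpep2nb, so reads there could be shared. Cd22, an inhibitory sialic acid receptor best known from B cells, was at 92.8, 98.4, 60.9 and 79.2 TPM against 19.9, 14.8, 13.2 and 13.6 and rose by 2.35 (SE 0.25, limma adjusted p = 8.30e-05). All 4 positive libraries held more Cd22 than any negative library. Egr2, an immediate early transcription factor, was at 356, 553, 446 and 1092 TPM against 58.3, 165, 65.6 and 158, a difference of 2.46 (SE 0.37, limma adjusted p = 0.00117); positive library 8 and negative libraries 4 and 8 were the high ones of their groups.

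The other 7 of the 12 top genes rose in limma's test with adjusted p of 5.24e-04 (Fdft1) to 0.00967 (Il27). They were the adhesion molecules Jaml (35.6 to 60.7 TPM in the positive libraries against 1.33 to 11.4 in the negative) and Esam (10.4 to 23.4 against 0 to 4.69), and Lyz2, a lysozyme of myeloid cells (184 to 374 against 36.6 to 103). Ly86, the partner of the toll-like receptor homologue RP105, was at 36.1 to 56.1 TPM against 3.92 to 13.7. Il27, the p28 subunit of interleukin 27, was at 18.9 to 53.4 TPM against 0 to 9.34; its exons overlap Apobr, and its call was lost with a pseudocount of 0.1 (adjusted p = 0.0525). Fndc5, the precursor of irisin, was at 16.1 to 39.4 TPM against 2.53 to 5.02. Fdft1, squalene synthase, was at 73.2 to 120.0 TPM against 11.4 to 27.0; its exons overlap Ctsb. In none of these 7 genes did the positive and negative libraries overlap.

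**Figure D2:**
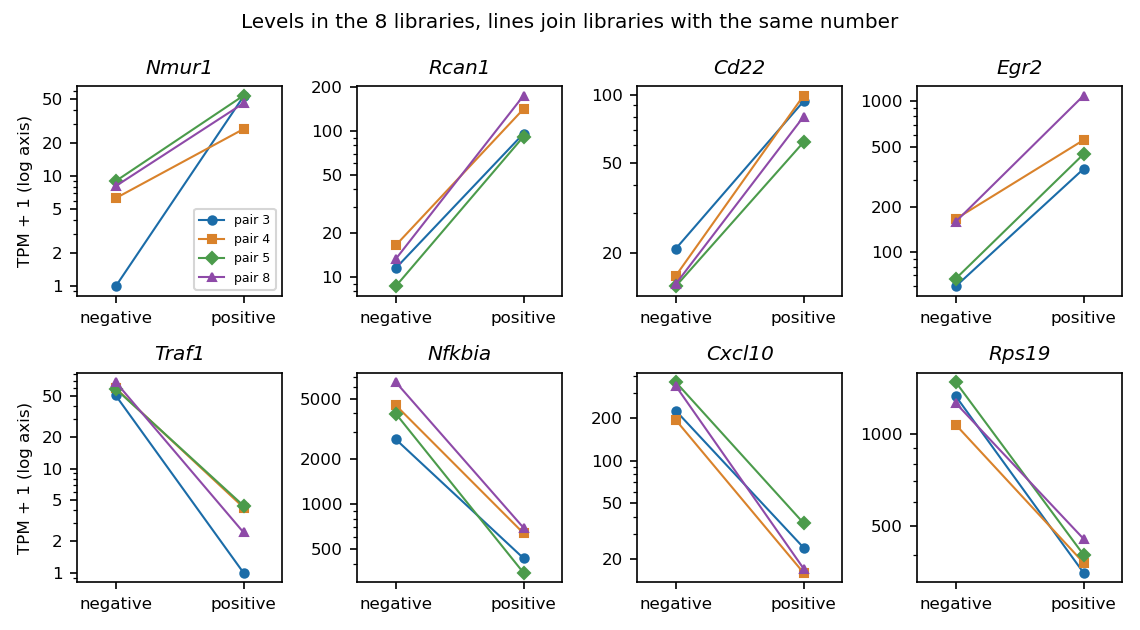
Levels of 8 genes in the 8 libraries (TPM + 1, log axis, each panel with its own range), with a line joining the negative and the positive library of each number. All 4 lines rise for Nmur1, Rcan1, Cd22 and Egr2 and fall for Traf1, Nfkbia, Cxcl10 and Rps19, and no group overlaps the other.

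Among the lower genes, Traf1, an adaptor of TNF receptors whose transcription depends on NF-kappaB, was at 0, 3.23, 3.40 and 1.44 TPM in the positive libraries against 49.4, 58.1, 57.2 and 66.7 in the negative. It fell by 4.49 on the log2(TPM + 1) scale (SE 0.44, limma adjusted p = 4.94e-05), and its 4 positive libraries were all near 0. Myc, a transcription factor of growth and ribosome production, was at 5.65, 5.12, 1.52 and 2.39 TPM against 73.2, 71.9, 56.6 and 44.7, a difference of -3.83 (SE 0.37, limma adjusted p = 4.47e-05). Cxcl10, a chemokine for T cells, was at 23.1, 15.0, 35.0 and 16.2 TPM against 225, 194, 359.9 and 338, a difference of -3.62 (SE 0.28, limma adjusted p = 1.10e-05); its exons overlap Art3. For all 3 genes the lowest negative library was several times above the highest positive library. C5ar1, the receptor of complement C5a, was at 0.540, 2.52, 1.36 and 3.52 TPM against 36.2, 43.8, 36.9 and 37.5 (difference -3.84, limma adjusted p = 4.94e-05). The most abundant of the 12, Nfkbia, encodes the NF-kappaB inhibitor IkappaB-alpha and was at 435, 638, 348 and 694 TPM against 2692, 4531, 3989 and 6453 (difference -3.05, SE 0.26, limma adjusted p = 1.62e-05).

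The remaining 7 of the 12 fell too, with limma adjusted p of 2.41e-05 (Slc2a6) to 0.00362 (Rassf4). Dusp2, a phosphatase of MAP kinases, was at 3.12 to 7.45 TPM in the positive and 34.3 to 130.0 in the negative libraries. Slpi, a secreted protease inhibitor, was at 2.46 to 32.8 against 105 to 247 TPM, and the lysosomal hexose transporter gene Slc2a6 at 4.95 to 12.0 against 76.4 to 113 TPM. Il6, a pro-inflammatory cytokine, was at 0 to 7.16 against 16.2 to 50.3 TPM. Rassf4 was at 1.12 to 7.65 against 19.1 to 69.3 TPM, Cst7, a cystatin, at 0 to 10.2 against 26.8 to 59.9, and Chst13, a chondroitin sulfotransferase, at 3.99 to 8.69 against 22.8 to 47.9. The groups overlapped in none of the 7.

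Genes of Gq and calcium signalling did not move as a group. Of 48 listed and tested genes, 7 were higher and 9 lower in all 4 pairs, beside 16.0% and 10.8% of all genes, and their median centred difference was -0.14, beside 0.02. In limma's test 4 rose (Rcan1, Rgs1, Rgs2 and Itpr2, the last 2 named after their values were seen) and none fell, beside 5.95% and 3.9% of all genes. With the block 7 were called higher and 2 lower, and after centring 2 and 2. Without any 1 of positive libraries 4, 5 and 8 and negative libraries 3 and 5, only 2 were called higher. Rgs1, which shortens Gq and Gi signals and was the most abundant of the 4, was at 6863, 5024, 7304 and 4798 TPM in the positive libraries against 1899.8, 1948, 1610.0 and 1566 in the negative, a difference of 1.75 (SE 0.16, limma adjusted p = 2.41e-05) with no overlap.

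The 10 tested receptors for neuropeptides, neurotransmitters and related mediators include Nmur1, whose reporter defined the sort, so its rise is no separate result. Nmur1 included, 3 rose and none fell, in limma's test with and without the block, beside 5.95% and 3.9% of all genes without it. Besides Nmur1 they were Ptger3, a receptor of prostaglandin E2 (16.8 to 24.8 TPM against 2.83 to 6.53, difference 1.78, limma adjusted p = 0.00456), and Ramp1, a subunit of the receptor for the neuropeptide CGRP (17.7 to 28.4 TPM against 4.42 to 13.6, difference 1.40, limma adjusted p = 0.0284). Ramp1 was the weaker of these: its pair 5 lay 0.10 above the median gene. After centring, its adjusted p was 0.0774 (0.0683 with the block). It also lost its call without positive library 3 (0.0534), 4 (0.0804) or 8 (0.0757) and without negative library 4 (0.0607) or 8 (0.0705).

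Immediate early genes split. Of 38 tested, 11 were higher and 11 lower in all 4 pairs, beside 16.0% and 10.8% of all genes. Limma called 6 higher and 7 lower, beside 5.95% and 3.9% (14 and 8 with the block). After centring 2 were called higher and 7 lower. The number called higher was 2 without positive or negative library 5, 3 without positive library 8 or negative library 3, and 10 without negative library 4. Egr2 had the largest rise. On the other side were Myc and Dusp2 above, and Ier3, a survival gene induced by NF-kappaB and stress, at 16.4, 46.9, 12.3 and 18.3 TPM against 172, 251, 114 and 187 (difference -3.03, SE 0.35, limma adjusted p = 1.80e-04). Fosl1, a subunit of AP-1, was at 0.630 to 13.5 TPM against 13.9 to 40.9 (difference -2.56, limma adjusted p = 0.0128).

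Synthesis of sterols was the list with the highest median among the pathway lists. Cells make cholesterol from acetyl-CoA through mevalonate, farnesyl diphosphate, squalene and lanosterol. Of 29 tested genes for sterol and fatty acid synthesis, 19 were higher and none lower in all 4 pairs, and the median centred difference was 0.76, beside 0.02 over all genes; by pair it was 0.71, 0.72, 0.81 and 1.01. Limma called 15 higher and none lower (13 to 17 higher and none lower under every other scaling tried). Hmgcs1, at the start of the mevalonate route (named after its values were seen), was at 343, 341, 317 and 469.7 TPM against 119, 165, 94.7 and 96.8 (difference 1.64, SE 0.20, limma adjusted p = 2.77e-04). Fdps, farnesyl diphosphate synthase, was at 559, 255, 299.9 and 253 TPM against 142, 107, 76.4 and 32.8 (difference 2.02, SE 0.38, limma adjusted p = 0.00416). Positive library 3 was the high one and negative library 8 the low one, and the groups did not overlap. Further along the route, Sqle, squalene epoxidase, rose by 1.89 (73.8 to 127 TPM against 11.8 to 40.5), and Hsd17b7, an enzyme of later sterol steps, by 2.11 (23.02 to 41.6 TPM against 2.96 to 8.64). 

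For uptake, storage and efflux of lipid, 6 of 18 genes were higher and 2 lower in all 4 pairs, and limma called 5 higher and 1 lower (3 higher without positive library 3 or 8 or negative library 3 or 5, and 2 lower without positive library 4). Pltp, a phospholipid transfer protein, was at 12.1 to 16.8 TPM against 1.42 to 4.09 (difference 2.105, limma adjusted p = 0.00271; its exons overlap Ctsa). The gene called lower was Olr1, a scavenger receptor of oxidized lipoprotein, at 38.3 to 85.6 TPM against 132 to 265 (difference -1.66, limma adjusted p = 0.00183).

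The aryl hydrocarbon receptor senses dietary and microbial ligands in the gut. Of 12 tested genes of its pathway, 7 were higher and 2 lower in all 4 pairs, with a median centred difference of 0.60, and limma called 5 higher and none lower (7 and 2 with the block, 3 and 0 after centring or without positive library 3). Tiparp, a feedback target of the receptor, was at 547, 388, 580.0 and 561 TPM in the positive libraries against 262, 174, 234 and 224 in the negative, a difference of 1.21 (SE 0.17, limma adjusted p = 8.58e-04) with no overlap. Cyp1b1, a further target, was at 34.1 to 128 TPM against 14.7 to 41.2, so the groups overlapped, and each pair was higher by 1.05 or more relative to the median gene (limma adjusted p = 0.0231, 0.0638 after centring). Cyp1b1 also lost its call without positive library 3 (0.0685) or 5 (0.0756) or negative library 8 (0.0645). Nqo1, a target shared with the oxidant sensor Nfe2l2, was lower in all 4 pairs (13.1 to 45.0 TPM against 26.9 to 73.4) and did not pass over the 8 libraries without the block (limma adjusted p = 0.119, 0.00957 with the block and 0.0271 over all 11 sorted libraries).

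Markers of activated intestinal eosinophils were more often higher than lower in the pairs. Of 25 tested, 13 were higher and 4 lower in all 4 pairs, with a median centred difference of 0.23. Limma called 11 higher and 3 lower (8 and 3 after centring). The higher ones included Dpep2 and Cd22 above, Olfm4 (olfactomedin 4, 113 to 193 TPM against 43.1 to 59.8, difference 1.45, limma adjusted p = 8.13e-04) and Il1r2, the decoy receptor of interleukin 1 (named after its values were seen; 1857 to 3959.8 TPM against 1049 to 1445, difference 1.24, limma adjusted p = 0.00171). Of the costimulators of T cells, Cd86 rose (75.3 to 125 TPM against 23.4 to 60.2, difference 1.49, limma adjusted p = 0.00487), and Cd80 was higher in all 4 pairs (133 to 303 TPM against 75.4 to 188) but did not pass over the 8 libraries without the block (limma adjusted p = 0.0629, 0.00123 with the block and 0.0313 over all 11 sorted libraries). Icam1, an adhesion molecule on the same list, fell: it was at 193, 181, 152 and 202 TPM in the positive libraries against 759, 751, 595 and 632 in the negative (difference -1.91, SE 0.15, limma adjusted p = 1.10e-05).

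Lectins and inhibitory receptors moved both ways, with 10 of 29 higher and 9 lower in all 4 pairs and 9 called higher and 4 lower. The largest falls were in Clec12a (0 to 0.540 TPM against 7.32 to 13.03, difference -3.04, limma adjusted p = 1.71e-04), Clec4a2 (-2.66, limma adjusted p = 3.20e-04), and Clec4e, which encodes the receptor Mincle (72.7 to 132 TPM against 369.7 to 504, difference -2.04, limma adjusted p = 4.94e-05). The genes of the Clec4a family are close copies, and the counting may have split their reads. Of cytokine receptors, 10 of 24 were higher and 2 lower in all 4 pairs, 5 were called higher and none lower (3 higher without positive library 4, 5 or 8, 2 without negative library 3 or 5, and 1 lower without positive library 5). Among 19 receptors of chemoattractants, 5 rose and 5 fell (3 fell without negative library 3). Cxcr2, which binds neutrophil-attracting chemokines, rose (11.1 to 47.0 TPM against 3.52 to 5.99, difference 2.14, limma adjusted p = 0.00481), as did Gpr171 (21.7 to 34.6 TPM against 1.71 to 11.3, difference 2.28, limma adjusted p = 0.00426). Gpr65, an acid-sensing receptor, fell (27.4 to 73.8 TPM against 212 to 346, difference -2.39, limma adjusted p = 1.67e-04).

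Of adhesion molecules, 4 of 30 were higher and 10 lower in all 4 pairs, beside 16.0% and 10.8% of all genes. Limma called 5 in each direction, beside 5.95% higher and 3.9% lower (3 higher without positive library 5 or 8 or negative library 3 or 8). Besides Icam1, the falls included Itgb7, the integrin chain for homing to the gut (31.8, 22.7, 15.3 and 45.6 TPM against 80.9, 65.8, 164 and 205, difference -2.08, limma adjusted p = 0.0039).

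NF-kappaB genes were mostly lower. Of 28 tested subunits and feedback genes, 17 were lower and 2 higher in all 4 pairs, with a median centred difference of -0.79 (-1.01, -0.81, -0.89 and -0.64 by pair). Limma called 10 lower and none higher, 13 lower with the block, and 10 to 12 lower under the other scalings. The summed level of the list was 2501 to 3202 TPM in the positive and 6808 to 11370 TPM in the negative libraries. Besides Nfkbia and Traf1, the nuclear IkappaB protein gene Nfkbiz was at 169, 162, 198 and 241 TPM in the positive libraries against 468, 760.1, 658 and 1048 in the negative (difference -1.88, SE 0.22, limma adjusted p = 1.78e-04). Bcl3, a further nuclear IkappaB protein, was at 5.32 to 19.9 TPM against 24.1 to 94.1 (difference -2.01, limma adjusted p = 0.01). Relb, a subunit of the alternative pathway (named after its values were seen), was at 44.7 to 79.4 TPM against 147 to 289.6 (difference -1.71, limma adjusted p = 6.59e-04).

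The 250 bases before the transcription start of 4 of the fallen genes are shown because each holds a match to the kappaB motif, the sequence NF-kappaB binds, searched on both strands. The sequences are from RefSeq's promoters on GRCm38.p6, read 5′ to 3′ along the gene's strand, and the capitals mark the matches. For Nfkbia (chr12:55492648-55492897, minus strand) the match begins at position -29 from the start, for Cxcl10 (chr5:92348890-92349139, minus strand) the 2 matches begin at -159 and -103, for Il6 (chr5:30012864-30013113, plus strand) at -44, and for Ier3 (chr17:35821463-35821712, plus strand) at -92.
Nfkbia: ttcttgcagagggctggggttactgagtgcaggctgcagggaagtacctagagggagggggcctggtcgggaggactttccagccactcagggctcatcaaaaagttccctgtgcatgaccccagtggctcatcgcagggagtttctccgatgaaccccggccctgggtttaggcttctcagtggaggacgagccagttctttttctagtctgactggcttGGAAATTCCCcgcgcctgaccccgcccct
Cxcl10: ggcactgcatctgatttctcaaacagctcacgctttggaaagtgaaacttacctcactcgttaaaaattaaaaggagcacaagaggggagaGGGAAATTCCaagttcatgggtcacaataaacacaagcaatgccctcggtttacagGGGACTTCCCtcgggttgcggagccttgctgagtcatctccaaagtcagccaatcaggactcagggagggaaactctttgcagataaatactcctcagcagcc
Il6: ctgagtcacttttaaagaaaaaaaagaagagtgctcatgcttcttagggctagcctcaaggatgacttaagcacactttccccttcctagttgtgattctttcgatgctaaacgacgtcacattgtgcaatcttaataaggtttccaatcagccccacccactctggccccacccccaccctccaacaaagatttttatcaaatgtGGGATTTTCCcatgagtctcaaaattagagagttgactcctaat
Ier3: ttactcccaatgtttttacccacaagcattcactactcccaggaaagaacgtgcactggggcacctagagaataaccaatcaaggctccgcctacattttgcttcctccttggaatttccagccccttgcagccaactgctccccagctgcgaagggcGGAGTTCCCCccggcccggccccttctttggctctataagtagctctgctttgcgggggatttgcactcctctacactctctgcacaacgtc

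Such a match was present in 5.54% of the 6493 tested genes with a promoter (360 genes) and in 4.46% of all 27018 promoters of this length. It was present in 4.57% of the consistent higher genes with a promoter (47 of 1028) and 10.2% of the lower ones (72 of 705). Among the lower genes that differed by at least 1 in every pair the share was 17.9% (17 of 95), and among the consistent lower genes of the NF-kappaB list 7 of 13. These shares describe letters in a window and were not tested. The NF-kappaB list was made of its subunits and feedback genes, and the share among its other members was not counted. The 7 of 13 therefore cannot show whether the motif goes with being lower. Of 3 other motifs searched on both strands, the AP-1 motif TGANTCA was in 5.38% of the tested genes, 7.52% of the consistent lower and 6.52% of the higher genes. In the stricter sets AP-1 was as frequent as kappaB among the lower genes at 1 or more in every pair (17 of 95, 17.9%), and it was in 4 of the 13 NF-kappaB genes. The CRE motif TGACGTCA was in 3.37% of the tested, 3.69% of the lower and 2.92% of the higher genes and in 5 of 35 higher genes at 1 or more in every pair, and the sterol response motif, SRE, in 0.0924% of the tested genes and in none of the 13 consistent sterol genes with a promoter.

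Cytokines and growth factors were mostly lower. Of 18 cytokines and growth factors, 12 were lower and 2 higher in all 4 pairs (median centred difference -0.89), and limma called 7 lower and 1, Il27, higher (2 higher without negative library 4). Tnf was at 16.8, 37.0, 14.3 and 47.9 TPM in the positive libraries against 102, 192, 92.7 and 252 in the negative (difference -2.47, SE 0.40, limma adjusted p = 0.00176). In both groups libraries 4 and 8 were the high ones, so that the 4 within-pair differences were close (-2.45 to -2.88, centred). Il23a, the p19 subunit of interleukin 23, was at 0 to 2.76 TPM against 5.85 to 26.8 (difference -3.09, limma adjusted p = 0.00186). Il4, a type 2 cytokine that eosinophils store, was at 229.6, 345, 169 and 191 TPM against 329, 661, 306 and 434; the groups overlapped, since negative libraries 3 and 5 lay below positive library 4, but each pair was lower. Its difference of -0.87 barely passed (limma adjusted p = 0.0463, 6.31e-04 with the block). Il4 lost its call without any of positive libraries 3, 5 and 8 or negative libraries 4 and 8, with adjusted p of 0.0895 to 0.126.

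Of 10 chemokines, 6 were lower and 3 higher in all 4 pairs, and limma called 3 in each direction (6 lower and 3 higher with the block). Their summed level went the other way and was higher in the positive library of each pair. The sums were 31169 to 41180 TPM in the positive and 29254 to 35132 TPM in the negative libraries, so the groups overlapped. Cxcl10 fell as above. Cxcl1, which attracts neutrophils, was lower in all 4 pairs (4.47 to 22.3 TPM against 10.6 to 106) but did not pass over the 8 libraries without the block (limma adjusted p = 0.113, 0.00178 with the block and 0.0135 over all 11 sorted libraries). Ppbp, a chemokine best known from platelets, rose (104, 121, 163 and 94.6 TPM against 28.0, 50.7, 51.7 and 30.1, difference 1.59, limma adjusted p = 0.00178). Ccl4, a chemokine for monocytes and T cells (named after its values were seen), rose from 4647 to 5693 TPM in the negative to 9588 to 11974 TPM in the positive libraries (difference 1.02, limma adjusted p = 2.42e-04); Ccl3 and Ccl4 are close copies, and the counting may have split their reads.

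Survival and death genes were more often lower: 12 of 35 were lower and 5 higher in all 4 pairs, with 4 called lower and 1 higher (none higher without positive library 3 or 5 or negative library 3 or 8). Fas, the death receptor, was at 35.1, 35.4, 22.9 and 14.8 TPM in the positive libraries against 259, 292, 101 and 101 in the negative (difference -2.66, SE 0.38, limma adjusted p = 7.21e-04). Casp4, an inflammatory caspase, was at 7.15 to 33.9 TPM against 47.8 to 115 (difference -2.53, limma adjusted p = 0.00265), and Gadd45b, a stress gene, at 215 to 359 TPM against 438 to 680.3 (difference -0.92, limma adjusted p = 0.00688, 0.055 without the variance trend).

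MHC class I presentation was lower: 12 of 22 genes were lower and none higher in all 4 pairs (median centred difference -0.52), and limma called 6 lower and none higher, 6 to 8 lower under the other scalings. B2m, the shared light chain (named after its values were seen), was at 3626, 3143, 3359.8 and 3232 TPM in the positive libraries against 6652, 5825, 5187 and 5679 in the negative (difference -0.80, SE 0.12, limma adjusted p = 0.001). The classical heavy chain H2-K1 was at 1560.4, 1471, 1187 and 1302 TPM against 3179, 2635, 2584 and 2647 (difference -1.003, SE 0.13, limma adjusted p = 4.19e-04). H2-Q6 and H2-Q7, non-classical heavy chains, differed most: H2-Q6 was at 74.5 to 123 TPM against 467 to 681 and H2-Q7 at 37.6 to 60.6 against 158 to 308. Reads of these near-identical copies may have been split by the counting, so their separate levels are uncertain.

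MHC class II genes turned on 1 library. H2-Ab1, a class II chain, was at 148, 113, 192 and 118 TPM in the positive libraries and 80.8, 780.4, 206 and 69.9 in the negative, with negative library 4 far above the other 7. Its difference was -0.32 over the 4 pairs (limma adjusted p = 0.759) and 0.40 without negative library 4 (adjusted p = 0.462). The median of the 12 class II and costimulation genes was 0.34, -1.08, -0.05 and 0.45 in pairs 3, 4, 5 and 8. Of 17 dendritic cell markers 5 were measured, 4 of them class II genes (H2-Aa, H2-Ab1, H2-Eb1 and Cd74), and they summed to 2525 TPM in negative library 4, 370 to 768 TPM in the other negative and 489 to 599.6 TPM in the positive libraries. The part of such cells was not tested.

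On the list of granule proteins and related abundant eosinophil genes, 6 of 7 tested genes were lower in all 4 pairs, and limma called 3 lower (Prg2, Serpinb2 and Cst7), 6 with the block. Prg2, the major basic protein, was at 29.8, 6.99, 13.5 and 9.67 TPM in the positive libraries against 80.9, 56.5, 58.9 and 31.5 in the negative (difference -1.98, SE 0.40, limma adjusted p = 0.00678). Ear6, a ribonuclease of the granules, was lower in all 4 pairs (1.17 to 39.9 TPM against 12.7 to 79.9) but did not pass without the block (limma adjusted p = 0.267, 0.0157 with it, 0.236 over all 11 sorted libraries), and its family holds close copies. Serpinb2, a protease inhibitor that is not a granule protein, was at 589 to 948 TPM against 997 to 1407 (difference -0.75, limma adjusted p = 0.0128, 0.0543 after quantile normalization and 0.0852 without the variance trend; its exons overlap Serpinb10), and Cst7 fell as above. Among genes of eicosanoid synthesis, 6 of 14 were higher and 4 lower in all 4 pairs. Ptgs1, the constitutive cyclooxygenase, rose (36.6 to 63.1 TPM against 13.03 to 19.5, difference 1.53, limma adjusted p = 0.00301). Alox5ap, the partner of 5-lipoxygenase, fell (691 to 828 TPM against 1110.0 to 1355, difference -0.70, limma adjusted p = 0.00352, 0.06 without the variance trend).

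Of 44 endosome and lysosome genes, 11 were higher and 3 lower in all 4 pairs, beside 16.0% and 10.8% of all genes, and 6 were called higher and 1 lower, beside 5.95% and 3.9% (3 higher without positive library 3 or 5 or negative library 5, 2 without positive library 8 and 10 without negative library 4). Cd68 rose (90.0 to 149.5 TPM against 36.1 to 63.0, difference 1.26, limma adjusted p = 0.00368), as did Laptm4a (381 to 594 TPM against 192 to 234, difference 1.13, limma adjusted p = 0.00101), both lysosomal membrane proteins. Ctsz, a cathepsin, fell (144 to 284 TPM against 300.3 to 687, difference -1.16, limma adjusted p = 0.0128, 0.0641 without the variance trend; its exons overlap Nelfcd). Matrix remodelling genes were split, 6 of 18 higher and 5 lower in all 4 pairs.

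Ribosomal protein genes were the most uniform list. Of 80 tested, 77 were lower and none higher in all 4 pairs, with a median centred difference of -0.95 (-1.04, -0.64, -1.08 and -1.03 by pair). Limma called 69 lower and none higher (56 to 77 lower under the other scalings, 30 with a variance prior without trend). Rps19 was at 349, 377, 400.1 and 452 TPM in the positive libraries against 1334, 1074, 1483 and 1265 in the negative, a difference of -1.70 (SE 0.14, limma adjusted p = 1.62e-05). Rpl13 was at 617 to 839 TPM against 1269.5 to 2038 (difference -1.32), Rpl10a at 394 to 441 against 832 to 940.3 (difference -1.10), and Rps2 at 157 to 342 against 422 to 931 (difference -1.31). Together the list took 8.68% to 10.0% of the deposited TPM in the positive and 13.5% to 17.6% in the negative libraries. TPM is a share of the library. The median of the mean differences was 0.23 as deposited. With all genes kept and each library rescaled to the same total, it was 0.27, with 548 genes called higher and 298 lower. With ribosomal protein genes left out and the rest rescaled to that total, the median was 0.18, with 346 called higher and 256 lower.

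Oxidative phosphorylation genes leaned the same way, with 30 of 76 lower and 4 higher in all 4 pairs, beside 10.8% and 16.0% of all genes (median centred difference -0.44). Limma called 4 lower and none higher, beside 3.9% and 5.95% of all genes (16 lower and 3 higher with the block, 15 lower after centring). Without positive library 3 or negative library 8 only 1 was called lower, without negative library 5 only 2, and without negative library 4 there were 7. Atp5e, a subunit of ATP synthase, was at 391.96 to 485 TPM against 647 to 950.5 (difference -0.71, limma adjusted p = 0.00962, 0.0768 without the variance trend). Of 31 genes of hypoxia and glycolysis, limma called 6 lower and 3 higher, beside 3.9% and 5.95% of all genes (1 higher without positive library 4 or 8 or negative library 3 or 5). Tpi1, a glycolytic enzyme, fell (58.8 to 107 TPM against 138 to 207, difference -1.16, limma adjusted p = 0.00384), as did Ddit4, an inhibitor of mTOR that stress induces (0 to 0.750 TPM against 2.54 to 8.67, difference -2.34, limma adjusted p = 0.00272). Of 22 genes of the cell cycle and DNA replication, 10 were higher and 2 lower in all 4 pairs, beside 16.0% and 10.8% of all genes. Limma called 4 higher, beside 5.95% of all genes (2 without positive library 3, 4 or 8 or negative library 3 or 5, and 1 without positive library 5). Levels were low: Mcm6, part of the replicative helicase, was at 10.3 to 24.03 TPM against 1.42 to 5.27 (difference 1.88, limma adjusted p = 0.0105). For the unfolded protein response limma called 0 higher and 1 lower of 29, and for the type I interferon response 0 and 1 of 30. The shares over all genes were 5.95% and 3.9%, so these counts do not set the lists apart. With the block the counts were 4 and 1 for the first list and 3 and 2 for the second. With any 1 library left out they were no more than 2 in either direction, and the list medians were 0.02 and 0.09. Of 6 measured targets of interleukins 4 and 13, 1 fell, Cish, a feedback inhibitor of cytokine signalling (12.7 to 23.1 TPM against 38.7 to 60.2, difference -1.43, limma adjusted p = 0.00557).

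**Figure D3:**
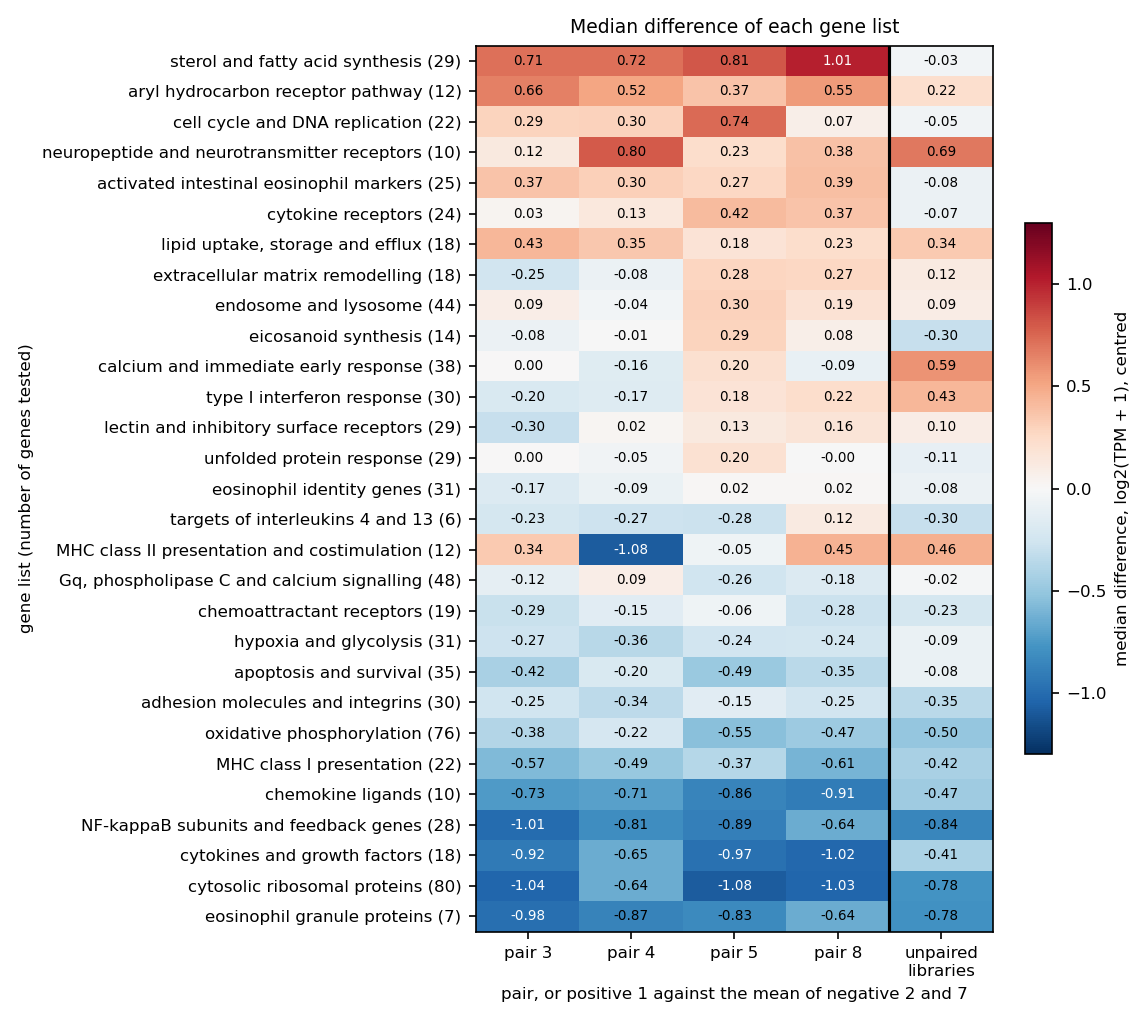
Median difference of each pathway list with at least 5 tested genes, positive minus negative on the log2(TPM + 1) scale relative to the median gene, in each pair (left 4 columns) and in the libraries without a same-numbered partner (right column); red is higher and blue lower in the positive cells. Sterol synthesis is at 0.71 to 1.01 in the pairs and -0.03 in the unpaired libraries, while NF-kappaB, ribosomal protein and the granule list are negative in all 5 columns.

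Siglecf, Ccr3 and Il5ra, which mark eosinophils, were present in all 8 libraries. Siglecf was at 218 to 314 TPM in the positive and 114 to 202 TPM in the negative libraries, without overlap. Ccr3 was at 312 to 548 and 369.6 to 572 TPM, and Il5ra at 27.6 to 43.8 and 24.2 to 54.7 TPM. Prg2, a further marker, was present in all 8 libraries too and fell, as above. Adgre1, Itgam and Epx were also listed for this check, and their levels are not given here. Of 31 eosinophil identity genes, 6 were higher and 6 lower in all 4 pairs, beside 16.0% and 10.8% of all genes, with a median centred difference of 0.00. Id2, a transcriptional regulator on this list, fell (69.9 to 87.5 TPM against 117 to 169, difference -0.89, limma adjusted p = 0.00808).

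Markers of other cells were listed as well. Of 17 T cell markers none was among the genes analysed here, and of 17 markers of group 2 innate lymphoid cells, which also carry NMUR1, 3 were: Nmur1 itself, Hs3st1 (4.33 to 14.9 TPM against 0.300 to 3.04, limma adjusted p = 0.0128, 0.228 over all 11 sorted libraries) and Ltb, a cytokine of the TNF family, which was lower (4.41 to 25.8 TPM against 63.4 to 99.0, difference -2.23, limma adjusted p = 0.00498). Of 21 macrophage and monocyte markers, 10 were measured, 6 were higher in all 4 pairs and 5 rose (3 without positive library 8). Their sum was 1104 to 1507 TPM in the positive and 571 to 825 TPM in the negative libraries, so that it moved with the sort. Cd68 and Lyz2 above are on this list and part of the sum. Fcgr4, an Fc receptor on the list, was at 131 to 172 TPM against 25.3 to 49.7. C1qb, a complement subunit, was at 24.8 to 37.0 TPM against 8.30 to 17.1 (limma adjusted p = 0.0142, 0.0503 without positive library 8). The part of such cells in the differences was not tested. Mertk, C1qc and Mrc1 were not among the genes analysed here.

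Of 26 neutrophil markers 12 were measured; 3 were higher and 5 lower in all 4 pairs, and their sum overlapped between the groups (13186 to 16320 TPM against 15076 to 20440 TPM). Cxcr2 and Il1r2 above are on this list too. Padi4, a peptidylarginine deiminase, fell (3.45 to 11.6 TPM against 35.9 to 94.1, difference -2.74, limma adjusted p = 0.00101), as did Acod1, which makes itaconate (98.2 to 193 TPM against 448 to 909, difference -2.14, limma adjusted p = 1.53e-04). S100a9, a defining neutrophil gene, was lower in all 4 pairs at very uneven levels (0, 135, 8.82 and 23.4 TPM against 83.6, 413, 22.1 and 86.6; limma adjusted p = 0.148, 0.0124 with the block and 0.196 over all 11 sorted libraries). For gut epithelium 4 of 36 markers were measured, with sums of 219 to 405 TPM in the positive and 123 to 209 TPM in the negative libraries that did not overlap; 1 of them, Olfm4, rose (2 without positive library 3), and Lyz1, of Paneth cells, did not pass over the 8 libraries (9.84 to 56.4 TPM against 2.52 to 10.2, limma adjusted p = 0.0622, 0.0149 over all 11). In the unpaired libraries Lyz1 was at 349 TPM in positive 1 against 2.51 and 5.08 TPM in negatives 2 and 7, and 3 of the 4 epithelial markers were higher and none lower, with a median of 3.22. Of 20 markers of erythroid cells and platelets 2 were measured, with sums of 104 to 165 TPM against 31.4 to 66.3 TPM that included Ppbp. Of 23 B and plasma cell markers 3 were measured, among them Cd22, and their sums overlapped (212 to 540 TPM against 113 to 477 TPM). Of 30 markers of stroma, endothelium, nerve and glia 2 were measured (167 to 243 TPM against 86.5 to 149 TPM), of 18 mast cell and basophil markers 4 (363 to 616 TPM against 446 to 953 TPM), and of 14 natural killer and cytotoxic markers 1 (1.58 to 2.7 TPM against 0 to 1.09 TPM). The part of these cells in the differences was not tested either.

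The libraries themselves differed in 1 further respect. The number of genes at 1 TPM or more was 7901 to 7928 in the positive and 7740 to 7846 in the negative libraries, without overlap, and 7 to 15 genes against 17 to 41 were listed at 0. Depth was not given in the sources used here, so the detection limit of a library is unknown, and whether depth moves with the sort was not tested.

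Positive library 1 and negative libraries 2 and 7 have no same-numbered partner and were not used to find the consistent genes. With 1 positive library there is no test, and a gene was counted as higher or lower where positive 1 lay above or below both negative libraries after each library was centred on its median gene. Of the 1275 consistent higher genes, 746 (58.5%) were higher there and 203 (15.9%) lower, beside 35.1% and 36.6% of all genes tested. Of the 862 consistent lower genes, 649 (75.3%) were lower and 79 (9.16%) higher. As deposited, 865 (67.8%) of the higher genes were higher and 590 (68.4%) of the lower genes lower, beside 43.6% and 29.0% of all genes. Of the 12 top higher genes 11 were higher, and all 12 top lower genes were lower. Some gaps were small. C5ar1 was at 10.4 TPM in positive 1 against 56.0 and 10.8 TPM in negatives 2 and 7. Cd22 was at 63.0 TPM against 53.8 and 22.1 TPM.

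The exception among the top higher genes was Fdft1, at 24.1 TPM in positive 1 against 40.2 and 22.6 TPM in negatives 2 and 7. It shared this with its pathway: of the 29 genes for sterol and fatty acid synthesis, 10 were higher and 12 lower in the unpaired libraries, with a median of -0.03. Fdps was at 85.0 TPM against 146 and 81.8 and Hmgcs1 at 188 against 166 and 149.9. The rise of sterol genes was thus seen in all 4 pairs and not in the 3 other libraries. Nmur1 itself was at 27.8 TPM in positive 1, within the range of the paired positive libraries, and at 15.6 and 7.83 TPM in negatives 2 and 7, of which negative 2 lay above every paired negative library. Rcan1, at 113 TPM against 6.09 and 27.2, and Traf1, at 11.4 against 49.2 and 20.7, kept their direction, the latter with a smaller difference.

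Several lists kept their direction in the unpaired libraries and others did not. Of 28 NF-kappaB genes, 20 were lower and 3 higher (median -0.84). All 80 ribosomal protein genes were lower (median -0.78), as were 16 of 22 MHC class I genes (3 higher, median -0.42), 57 of 76 oxidative phosphorylation genes (7 higher, median -0.50) and 6 of the 7 genes of the granule list (median -0.78). Activated intestinal markers were even, with 10 higher and 9 lower, whereas immediate early genes were more often higher (21 of 38, with 10 lower) and their median there was 0.59. Cell cycle genes had a median of 0.37 in the pairs and -0.05 here (7 higher and 6 lower). Cytokine receptors went from 0.22 to -0.07 (8 and 8), and eicosanoid genes from 0.11 to -0.30 (4 higher and 7 lower).

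**Figure D4:**
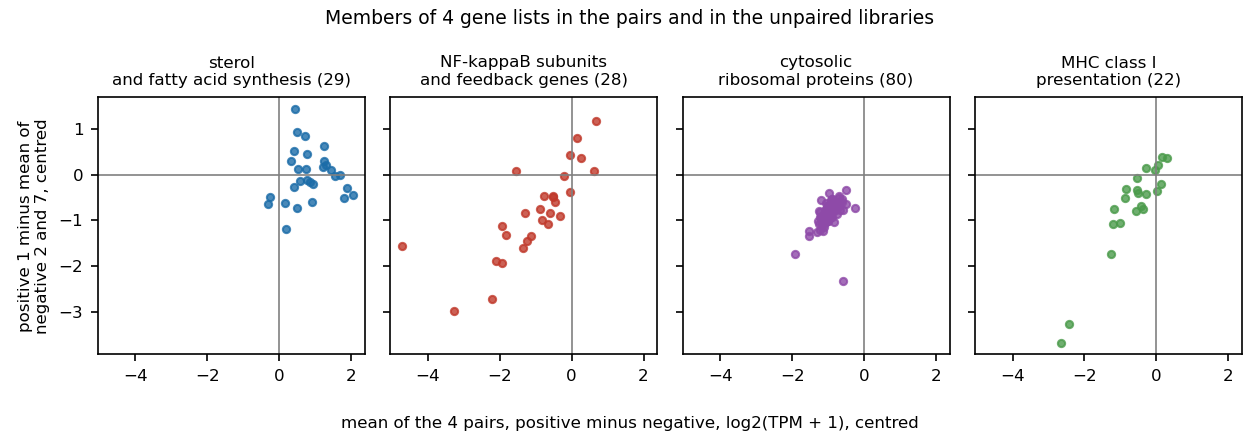
Each point is a gene of 1 of 4 lists: mean centred difference of the 4 pairs (horizontal) against the difference of positive 1 from the mean of negatives 2 and 7 (vertical), both on the log2(TPM + 1) scale. The 29 sterol genes lie mostly right of 0 but around 0 vertically (median -0.03), while the 28 NF-kappaB, 80 ribosomal protein and 22 MHC class I genes lie mostly below and left of 0.

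The consistent genes were also followed in the 24 libraries of total eosinophils from 7 tissues of wild-type C57BL/6 mice, which were normalized in a separate table. Small intestine was set against the mean of the 6 other tissues. Of 1253 consistent higher genes tested there, 705 (56.3%) were higher in small intestine and 37 (2.95%) lower in limma's test, beside 29.3% and 14.9% of the genes of both tests. Of 861 consistent lower genes, 208 (24.2%) were higher and 335 (38.9%) lower. All 12 top higher genes were higher in small intestine. Nmur1 was at 26.3 TPM on average there and 0.0271 TPM over the other 6 tissues, Dpep2 at 221 against 0.691, Cd22 at 75.8 against 0.887 and Jaml at 30.3 against 0.379. Lyz2 was the exception in size, at 243 TPM against 178, with bone marrow at 809.

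The 12 top lower genes did not share a tissue pattern: in limma's contrast of log2 values 6 were higher and 5 lower in small intestine, and Il6 did not pass (adjusted p = 0.175). Of the 6 called higher, Nfkbia, Traf1 and Dusp2 had a lower mean TPM in small intestine (1824, 25.8 and 21.0) than over the other tissues (2451, 39.5 and 36.2), so the direction depends on the scale. Slpi, Cst7, Chst13, Rassf4 and C5ar1 were the lower ones; Slpi was at 71.4 TPM in small intestine against 1088 TPM over the others. Traf1 was at 0.0325 TPM in blood, 126 in lung, 74.6 in skin, 35.1 in colon and 25.8 in small intestine, and Nfkbia at 336, 3853, 4098, 5879 and 1824 TPM in that order. Both were thus high in lung, skin and colon and low in blood. By list, 22 of 28 sterol genes and 24 of 25 activated intestinal markers were higher in small intestine, beside 29.3% of the genes of both tests. The activated intestinal list was chosen with earlier results of these data known, so its count is no separate readout. Of 80 ribosomal protein genes 58 were lower, beside 14.9%. Of 28 NF-kappaB genes, lower in the positive cells, 17 were called higher and 1 lower against the mean of the 6 other tissues. That mean includes blood, and Nfkbia and Traf1 were lower in small intestine than in lung, skin and colon.

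**Figure D5:**
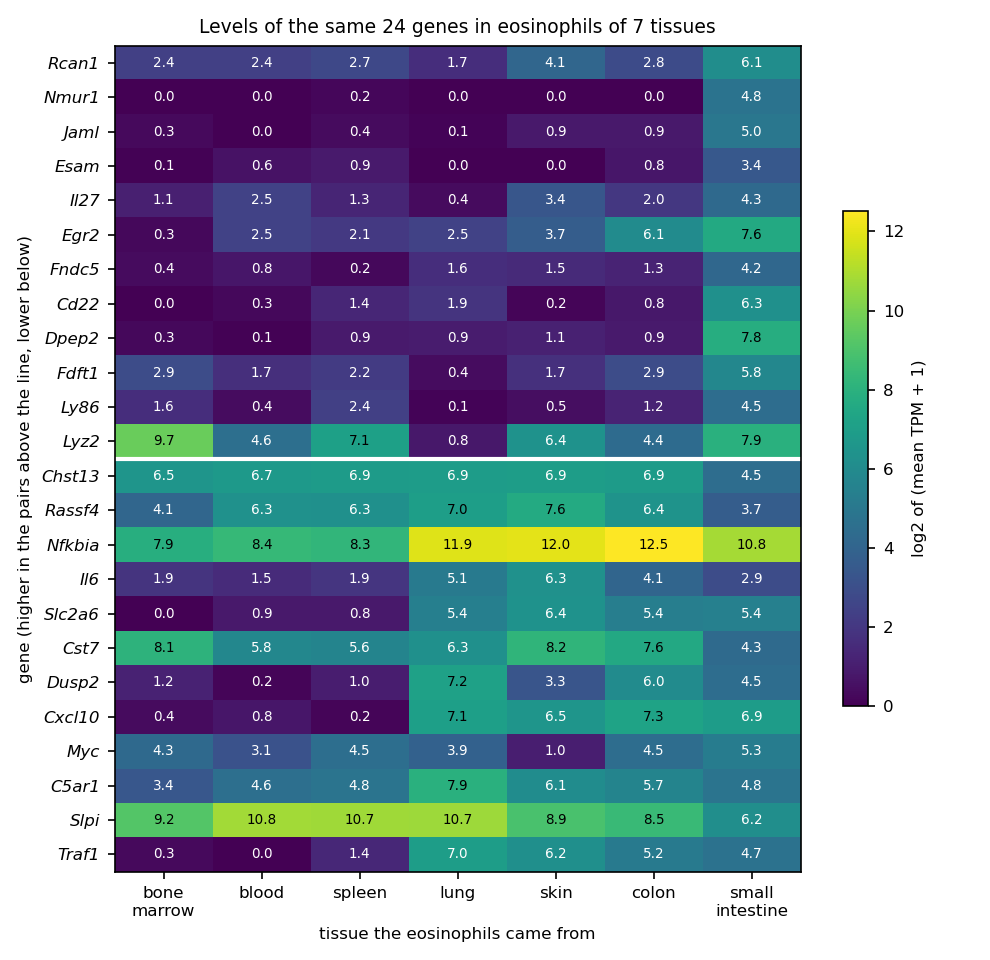
Mean level of the same 24 genes in eosinophils of 7 tissues, as log2 of (mean TPM + 1), with the genes higher in the reporter-positive cells above the white line and the lower ones below. The upper genes are highest in small intestine except Lyz2, which is highest in bone marrow, whereas the lower genes include some low in small intestine (Slpi, Cst7, Rassf4) and some high in lung, skin and colon (Nfkbia, Traf1, Cxcl10).

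Finally, the consistent genes were described by transcript length, GC content and level. The level comes from the same 8 libraries as the rule, so it is not a separate readout. The median length of the longest annotated protein-coding transcript (of any transcript where a gene has no coding one) was 3383 bases for the 1262 higher genes with a transcript, 2108 for the 855 lower genes and 3147 over the 7910 tested genes. Without ribosomal protein genes the lower genes had a median of 2314 bases. Over all lower genes the median GC content was 52.0%, against 49.4% for the higher genes and 49.7% for all genes tested. The median level of all lower genes was 65.8 TPM, and 52.1 TPM without ribosomal protein genes. It was 27.7 TPM for the higher genes and 20.7 TPM for all genes tested. The lower genes were thus shorter and more abundant as a group; these are descriptions across genes and were not tested.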

How the data were processed

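Bulk Smart-seq2 RNA of 8 sorted eosinophil libraries, 4 reporter-positive and 4 reporter-negative, was used, with 3 further sorted libraries and 24 tissue libraries as separate readouts; 1 single-cell sample was not analysed here. The deposited values are TPM, made by the authors from 150 bp paired reads with cutadapt 2.10, STAR 2.7.5c and RSEM 1.3.3 on mm10, per the submitters' processing notes. The annotation and the filter behind the 8001 sorted and 9844 tissue genes were not given in the sources used here, and total counts per library (depth) are unknown. RSEM shares reads among close copies, and strand was not stated.

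Values were transformed as log2(TPM + 1), with genes kept at 1 TPM or more in at least 4 of the 8 libraries (3 of 24 for the tissues). limma 3.58.1 in R 4.3.3 was fitted across all genes with group as the only term (mean-variance trend, not robust), and p-values were adjusted by Benjamini-Hochberg with a threshold of 0.05. The limma script was tested on simulated data. The numbers were checked as pairs: deviations from the group means correlated by 0.13 to 0.24 between libraries of the same number and by -0.18 to 0.11 between different numbers, all 4 pairs exceeded 0.1, and 8 of 8 libraries correlated best with their own number. The labels give the shared numbers but not what they mark. Coordinates, transcript lengths and overlaps were taken from GENCODE M21 on GRCm38.

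Genes named are Nmur1, the 12 higher and 12 lower consistent genes with the largest centred difference in their smallest pair, among genes averaging 10 TPM or more where they were higher, and up to 4 consistent genes per list. B2m, Ccl4, H2-Ab1, Hmgcs1, Il1r2, Itpr2, Relb and Rgs2, the genes at the edge of the rule, the eosinophil markers and the promoter motifs were chosen after values were seen. Some genes are not reported here. The members and the lists were chosen with earlier results of these data known. Alternatives were other pseudocounts (0.1 and 5), filters, scalings, variance priors, the replicate block, all 11 sorted libraries, and leaving out each library or pair.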

Additional observations from a re-analysis of the deposited data

Results flagged for a closer look

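Among 186 groups of 4 libraries, from 93 named genes in each group, 8 held a library set apart. Its gap to the nearest other exceeded the 95% critical value of Dixon's test. Rgs2 and Itpr2 were not among these genes. Chance flags about 1 group in 20. Nmur1 was listed at 0 in negative library 3, below the other negative libraries. There were 3 genes that stood out in positive library 4, with Tiparp lowest at 388 TPM, Mcm6 highest at 24.03 TPM and Ltb lowest at 4.41 TPM. In negative library 8, Ptger3 was lowest at 2.83 TPM and Cxcr2 lowest at 3.52 TPM. H2-K1 was highest in negative library 3 at 3179 TPM, and Rpl13 was highest in positive library 8 at 839 TPM.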

How the results depend on the processing

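Genes called by limma numbered 786, against 1349 with the replicate block and 1113 with the block and median-ratio scaling. A variance prior without trend gave 495, and all 11 sorted libraries gave 1152. The block and centring together gave 1120, an alternative chosen after seeing the data. Leaving out ribosomal protein genes and rescaling, also chosen after seeing the data, gave 602, beside 846 with all genes kept and rescaled. With 1 library left out the count was 508 to 830, and with 1 pair left out 335 (pair 8), 369 (pair 3), 375 (pair 5) and 648 (pair 4). Genes consistent in all 4 pairs numbered 2137, and 1092 or 521 where every pair had to differ by at least 0.25 or 0.5. Both as deposited and centred, the higher genes then went from 1275 to 623 and 260 and the lower ones from 862 to 469 and 261; the lower genes numbered 1380 after centring alone and 1343 after median-ratio scaling. The Nmur1 difference of 3.23 had p = 0.125 under exact sign flips of the pairs. The H2-Ab1 difference changed sign over all 11 libraries (0.12), and without 1 library or pair it ranged from -0.75 (without negative library 8) to 0.40 (without negative library 4) and 0.50 (without pair 4). Named genes were followed for 93 genes, of which limma called 86. Rgs2 and Itpr2, which lost their calls without 1 library, were not among them, nor were Siglecf, Ccr3, Il5ra and the genes at the edge of the rule. Of the 86, 68 kept the call under every alternative, 4 lost it without 1 library and 16 without a pair. No named call was lost with the block alone, and 5 named genes not called without it passed with it, of which Cd80, Cxcl1 and Nqo1 passed over all 11 sorted libraries too. Of 1166 list counts recomputed, 1043 stayed within 1.5 times. Depth is unknown, so values near 0 TPM have no detection limit.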
